A study of Trichoderma reesei with 12 samples.

Results

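In mycelium of the filamentous fungus Trichoderma reesei, 87 of the 10879 genes of the table were transcribed in darkness and stood at least 16-fold lower in light in 2 strains, while reads remained in light. They were chosen by their values. CPM is the count divided by the library's total and multiplied by 1000000, and a group mean is the mean CPM of its libraries. A gene was taken if its dark mean was at least 10 CPM and its light mean at most 0.0625 of the dark mean in both strains, and if its light mean reached 0.5 CPM in at least 1 strain. Of the 98 genes that met this, 4 in the rows TrE0659C to TrE0665C and 7 in runs of 4 or more neighbouring genes lower in light were left out.

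Light is a developmental and metabolic signal for this fungus, which grows on plant cell walls and is known for the cellulases it secretes. Blue light is sensed by photoreceptors of the BLR family and by ENVOY, and light is known to alter conidiation, secondary metabolism and the transcription of enzyme genes for the breakdown of cellulose. The deposited identifiers are not paired with gene names, so the roles of the 87 genes are not given here, and the mycelium could not be checked by marker genes. No row is paired with the name sor4, so the deletion could not be checked by name. Among the rows left out by identifier, TrE0662C, named after its values were seen, had 38841 and 64425 counts in ku80 darkness and 1, 5, 1 and 39 in sor4 darkness. In light it had 78 and 70 counts in ku80 and 0 in each of the 4 sor4 libraries.

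Every library came from mycelium harvested after 96 h at 28 °C, grown on cellulose in a minimal medium. The strain called ku80 here is QM6a with ku80 deleted, a loss that eases gene targeting, and the strain called sor4 also lacks sor4, a transporter gene of the SOR cluster for sorbicillinoid pigments. The groups were ku80 in darkness (2 libraries), sor4 in darkness (4), ku80 in light (2) and sor4 in light (4). The labels do not say whether libraries of a group came from separate cultures, nor whether more than 1 sor4 clone was used, so p-values measure only the spread between these libraries. Total counts per library ran from 7844524 to 12027855, and a library with 0 counts allows a level of up to 0.249 to 0.382 CPM (3 counts, counting error only).

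The drop in light, which chose the genes and is a description only, spanned a wide range. By the smaller of the fold differences of the 2 strains, 42 genes were 16 to 32-fold lower in light, 45 were at least 32-fold lower, and 12 of these were at least 100-fold lower. Of all 8939 genes with enough counts to be tested, 3.14% were at least 16-fold lower in both strains. In every dark library, 86 of the 87 genes stood above all 6 light libraries. The exception was TrC0099C, which was at 1.46 CPM in its lowest dark library and at 1.66 CPM in its highest light library. Since these are bulk samples, fewer transcribing cells and less RNA per cell cannot be told apart.

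Of the counts of a dark library, the 87 genes held 5.54% ± 0.446 (SD, n = 2) in the ku80 strain. For sor4 the dark share was 5.29% ± 0.333 (SD, n = 4). The corresponding shares in light were 0.068% ± 0.0355 and 0.0643% ± 0.00351. Few genes carried the dark share: 10 genes with at least 1000 CPM made up 79.3% of the summed dark level, and TrC1166C alone 26.3%. Another 34 genes stood at 100 to 1000 CPM and 43 at 10 to 100 CPM. In light, 12 genes averaged at least 10 CPM, 51 stood between 1 and 10 CPM and 24 under 1 CPM. Per kilobase of the length given in the table, dark and light levels had a Spearman rho of 0.73 across the 87 genes, a description only, since the rule limits both levels and their ratio. TrG1206C and TrE0168W departed from that order, at ranks 7 and 8 in darkness and 80 and 69 in light. The median level per kilobase was 72.8 CPM in darkness, against 27.7 CPM for all tested genes, which did not have to reach 10 CPM in darkness.

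**Figure D1:**
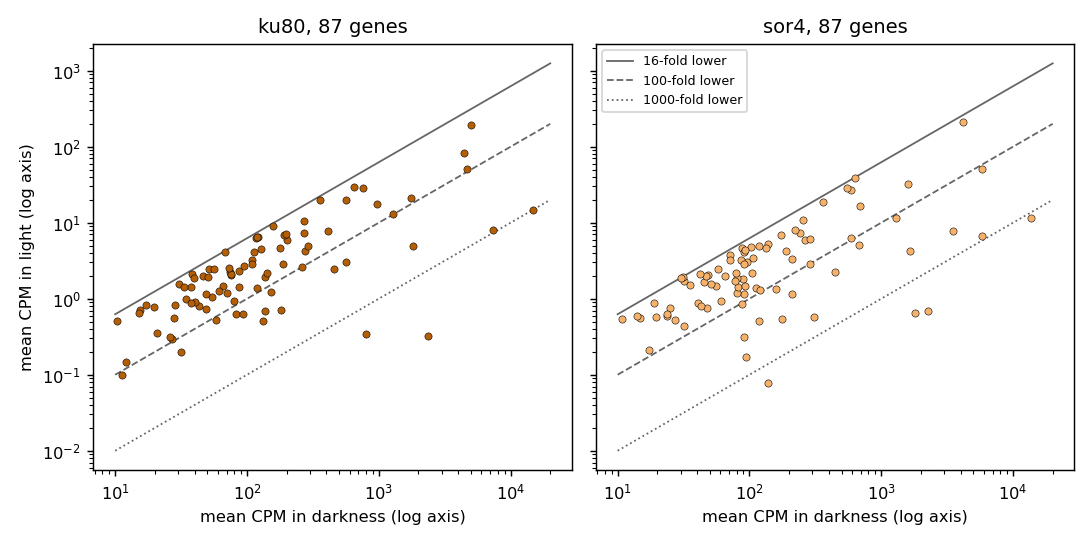
Mean CPM in light against mean CPM in darkness for each of the 87 genes in ku80 (left) and sor4 (right), both on log axes, with 1 point a gene and lines at 16-fold, 100-fold and 1000-fold lower levels. All points lie on or below the 16-fold line, and the points near or below the 1000-fold line include TrC1166C, TrG0022C, TrE0168W and TrG1206C.

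TrC1166C was the most abundant in darkness, also per kilobase, with 8757 CPM per kilobase. Its level was 12808 and 16811 CPM in the ku80 dark libraries and 12896, 10970.1, 16396 and 14626 CPM in sor4 dark replicates 1 to 4. In light it was at 9.69 and 19.5 CPM in ku80 and at 9.64, 9.84, 13.5 and 13.8 CPM in sor4. The groups of a condition overlapped between the strains, and the light level was 1015-fold lower in ku80 and 1173-fold lower in sor4.

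TrG0022C had a drop of similar size. It stood at 7321 and 7318 CPM in the ku80 dark libraries and at 6359, 7242, 4067 and 5621 CPM in sor4 dark replicates 1 to 4. In light the values were 7.52 and 8.41 CPM in ku80 and 7.17, 4.37, 6.41 and 8.46 CPM in sor4, or 919-fold and 882-fold lower. All 4 sor4 dark libraries were below both ku80 dark libraries, a difference that did not pass the test (log2 fold change -0.36, adjusted p = 0.76, edgeR).

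TrE0630C kept the highest level in light. It stood at 4916 and 5147 CPM in ku80 darkness and at 3959, 4205, 4507 and 3898 CPM in sor4 darkness. In light it was at 138 and 246 CPM in ku80 and at 200.2, 205, 218 and 219 CPM in sor4, which is 26.2-fold and 19.7-fold lower. It gave 30.4% of the summed light level of the 87 genes, and its mean light level of 277 CPM per kilobase was also the highest.

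TrG0220C and TrD0360W were abundant in darkness and uneven between libraries in light. TrG0220C stood at 4299 and 4587 CPM in ku80 darkness and at 3470.4, 6883, 7296 and 5649 CPM in sor4 darkness. In light it was at 6.23 CPM in ku80 replicate 1 and at 158 CPM in ku80 replicate 2, and at 13.5, 47.8, 75.3 and 66.4 CPM in sor4 replicates 1 to 4. The ku80 light libraries thus lay on either side of all sor4 light libraries. TrD0360W stood at 4337 and 5067 CPM in ku80 darkness and at 2977, 4003, 3813 and 3223 CPM in sor4 darkness. In light it was at 6.13 and 94.2 CPM in ku80 and at 9.89, 8.01, 6.71 and 6.30 CPM in sor4. Only ku80 light replicate 2 was high.

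TrA1372C and TrA0346C complete the 8 genes with the most counts in darkness, together with TrG1206C below. TrA1372C stood at 1609 and 2057 CPM in ku80 darkness and at 1674, 1431, 1820.3 and 1677 CPM in sor4 darkness, against 2.37 and 7.65 CPM in ku80 light and 4.08, 4.65, 4.24 and 4.04 CPM in sor4 light. TrA0346C, the shortest of the 87 with 318 bases, stood at 1517 and 1985 CPM in ku80 darkness and at 2064, 1261, 1615 and 1481 CPM in sor4 darkness. In light it was at 13.1 and 29.1 CPM in ku80 and at 34.6, 28.4, 32.5 and 32.7 CPM in sor4. Per kilobase its dark mean of 5277 CPM was above the 4253 CPM of TrG0022C, although TrG0022C had more counts.

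**Figure D2:**
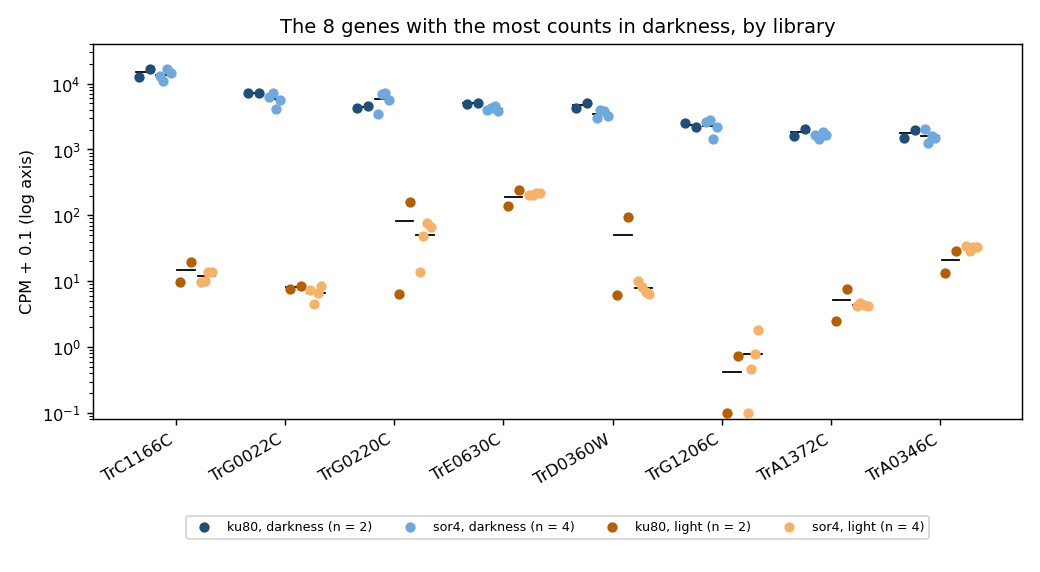
CPM + 0.1 on a log axis for the 8 genes with the most counts in darkness, with 1 point a library, black lines at the group means, blue for darkness and orange for light. Dark and light points of each gene are well apart, and the ku80 light points of TrG0220C (6.23 and 158 CPM) and TrD0360W (6.13 and 94.2 CPM) lie far from each other.

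The largest drops led to levels of a few counts. TrG1206C stood at 2529 and 2159.9 CPM in ku80 darkness and at 2579.8, 2761, 1458 and 2212 CPM in sor4 darkness. In light it had 0 and 5 counts in ku80 and 0, 4, 7 and 18 counts in sor4 replicates 1 to 4. From pooled counts its light level was 8381-fold lower in ku80 (95% exact binomial interval 3591 to 25813) and 3058-fold lower in sor4 (2129 to 4567). The intervals take in counting error alone, because without molecular identifiers several reads can stem from 1 molecule. TrE0168W had 7 and 0 counts in ku80 light and 2, 2, 15 and 7 counts in sor4 light, with pooled levels 2078-fold (1008 to 5168) and 2971-fold (2028 to 4549) lower than in darkness. TrE0168W rested on few dark libraries in sor4, as given further on. The 5 genes with the smallest ratios were TrG1206C, TrE0168W, TrC1166C, TrG0022C and TrA1372C, and all 5 were among the 10 with at least 1000 CPM in darkness. Since the rule asks for 0.5 CPM in light in at least 1 strain, the deepest drops need a high dark level. Nothing is therefore read from this overlap.

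At the other end, genes near the threshold had unlike levels in light. Mean light levels were 0.905 CPM in ku80 and 1.90 CPM in sor4 for TrF0189C, and 0.864 and 0.538 CPM for TrD1102C. TrD1298C, TrF0189C, TrF0836C, TrF0365C and TrF0056W lay just inside, with smaller fold differences of 16, 16, 16.1, 16.4 and 17.4. TrC1171C, TrF0366W, TrG0124W, TrD1102C and TrB0432C lay just outside, with 15.8, 15.5, 15.4, 15.2 and 15.1. TrF0836C, inside, went from 754 to 28.8 CPM in ku80 and from 627 to 38.9 CPM in sor4 (means). TrF0366W, outside, went from 347 to 22.4 CPM and from 346 to 22.2 CPM, and it is the table neighbour of TrF0365C. TrB0813C, the fifth highest in light, stood at 27.8 and 30.5 CPM in ku80 light and at 27.1, 32.2, 24 and 24.1 CPM in sor4 light, with no library apart from the others.

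The ku80 light libraries differed from each other in the residual level of these genes. The 87 genes held 0.0429% of the counts of ku80 light replicate 1 and 0.0931% of those of replicate 2, 2.17 times as much, with sor4 light libraries between them at 0.0605% to 0.0673%. Replicate 2 was higher than replicate 1 for 66 of the 87 genes, with a median difference of 0.89 on the log2 scale (CPM + 0.1), while over all tested genes the median difference was -0.01. Without TrG0220C and TrD0360W replicate 2 still held 1.63 times the share of replicate 1. Replicate 2 was above all 4 sor4 light libraries for 41 genes (47.1%, against 30.8% of all tested genes), and replicate 1 below all 4 for 38 genes (43.7%, against 23.8%). In the opposite positions, replicate 2 was below all 4 for 19 genes (21.8%, against 30.9%) and replicate 1 above all 4 for 4 genes (4.6%, against 29.0%). Of the 87 genes, 25 (28.7%) were over 4-fold apart between the ku80 light libraries, against 4.97% of all tested genes. Between the ku80 dark libraries none of the 87 was, against 0.996%. Replicate 2 is also the library with the fewest counts. The 87 genes had a median ku80 light level of 2.09 CPM, against 33.0 CPM for all tested genes. Their counts summed over both ku80 light libraries had a median of 34. The choice of the genes also enters these counts, since 5 of the 87 met the light limit of 0.5 CPM only in ku80 and 8 only in sor4. In each of these 5, replicate 2 was the higher library and replicate 1 was under 0.5 CPM. The comparison with all tested genes, which had no such limit, is therefore not independent of the choice. The parts of this choice, of depth and of low counts in these differences were not tested.

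TrG1061C, TrB1918C and TrB1271C show this difference at lower levels. TrG1061C, the longest of the 87 with 6369 bases, had 0 counts in ku80 light replicate 1 and 34 in replicate 2, and 6, 10, 22 and 14 counts in sor4 light replicates 1 to 4. TrB1918C, with 360 bases, was at 0.989 and 10.7 CPM in ku80 light and at 1.73, 1.55, 0.69 and 1.41 CPM in sor4 light. TrB1271C, named after its values were seen, was at 2.87 and 18.0 CPM in ku80 light and at 11.5, 9.56, 12.4 and 10.5 CPM in sor4 light, between the ku80 values. Some genes went the other way. TrG0858C had 14 counts in replicate 1 and 3 in replicate 2, and TrC1575C had 12 and 2.

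**Figure D3:**
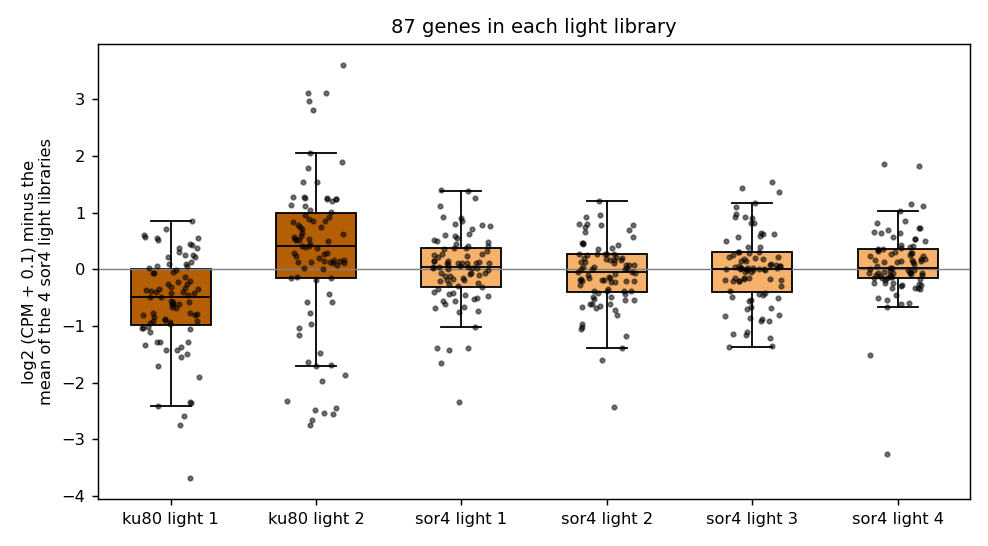
Log2 (CPM + 0.1) of each of the 87 genes in each light library, minus the mean of the 4 sor4 light libraries, with 1 point a gene and boxes for the quartiles, medians and whiskers to 1.5 times the box length. The box of ku80 light replicate 1 lies mostly below 0 and that of replicate 2 mostly above it, while the sor4 boxes are centred near 0.

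Loss of sor4 was compared with its parent in each condition. The rule set no limit on the difference between strains, but it read the levels of each strain. In light 74 genes reached 0.5 CPM in both strains, 5 only in ku80 and 8 only in sor4, so the light comparison is not independent of the choice. Nor is the dark comparison, since each strain had to reach 10 CPM in darkness and to meet the 16-fold limit. A gene far lower in sor4 darkness, such as TrE0662C, could not be among the 87. In darkness 0 of the 87 genes passed the test at an adjusted p under 0.05, where 3 of 8939 (0.0336%) did (edgeR quasi-likelihood test, Benjamini-Hochberg over all tested genes). At an unadjusted p under 0.05, 4 were lower in sor4 and 3 higher, that is 4.6% and 3.45%, against 4.37% and 3.38% of all tested genes, and DESeq2 called 1 of the 87 and 73 of 10491 genes in all. By sign 42 were lower and 45 higher (background 47.2% and 52.7%), with a median log2 fold change of 0.03 against 0.01 for all tested genes. All 4 sor4 libraries were below both ku80 libraries for 10 genes (11.5%, against 6.1% of all tested genes), and above them for 3 (3.45%, against 8.03%). At least 2-fold differences were seen for 5 genes higher in sor4 (background 3.05%) and 2 lower (background 1.06%). The 95% interval stayed inside a 2-fold change up or down for 49 of the 87 (56.3%, against 75.2% of all tested genes).

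The dark differences with the smallest unadjusted p all had lower values in sor4. TrF0464C stood at 46.2 and 75.7 CPM in ku80 darkness and at 31.9, 27.2, 25.4 and 10.2 CPM in sor4 darkness, without overlap (log2 fold change -1.40, SE 0.33, adjusted p = 0.216, edgeR). It was the gene called by DESeq2 (adjusted p = 0.0474, with a range of 0.0474 to 0.995 over the alternatives). TrB0576W stood at 799 and 1151 CPM in ku80 and at 659.4, 601, 790.4 and 733 CPM in sor4, again without overlap (log2 fold change -0.51, SE 0.14, adjusted p = 0.342, edgeR). TrC0116W stood at 348 and 476 CPM in ku80 and at 224, 245, 303 and 282 CPM in sor4 (log2 fold change -0.66, SE 0.22, adjusted p = 0.452, edgeR). In light the values of TrB0576W overlapped, with 16.8 and 18.4 CPM in ku80 and 15.4 to 17.9 CPM in sor4.

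In light 0 of the 87 genes passed, as did 0 of 8939 (0%) in edgeR. At an unadjusted p under 0.05, 6 were higher in sor4 and 3 lower (6.9% and 3.45%, against 4.86% and 3.31% of all tested genes), and DESeq2 called 1 of the 87 and 51 of 10491 genes in all. By sign 45 were higher and 42 lower (background 49.7% and 49.6%). All 4 sor4 libraries were above both ku80 libraries for 6 genes and below them for 3 (background 9.48% and 10.5%). At least 2-fold differences were seen for 10 genes higher in sor4 and 5 lower (background 4.26% and 2.47%). Of these, 5 of the 10 met the light limit only in sor4 and 3 of the 5 only in ku80, so nothing is read from the counts. The 74 genes that met it in both strains were 37 higher and 37 lower. The balance of signs rested on the pair of unlike ku80 light libraries. Without replicate 1, 60 of the 87 genes were lower in sor4, with a median log2 fold change of -0.33. Without replicate 2, 66 were higher, with a median of 0.72. The remaining ku80 light library was then assumed to vary like the other groups. In light the 95% interval stayed inside a 2-fold change for 15 of the 87 (17.2%, against 73.1% of all tested genes). For most of the 87 a strain difference of that size could therefore not be excluded.

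TrD0360W had the smallest unadjusted p in light, and its strain difference was -2.69 on the log2 scale (SE 0.65, adjusted p = 0.308, edgeR). Its values above show that ku80 light replicate 2 alone was high, and without that library the log2 fold change was 0.32. TrB0858W went the other way and was high in every sor4 light library. It had 5 and 6 counts in ku80 light and 20, 20, 47 and 44 counts in sor4 light, or 0.494 and 0.765 against 2.47, 1.82, 4.64 and 4.14 CPM (log2 fold change 2.41, SE 0.60, adjusted p = 0.322, edgeR). It passed in DESeq2 (adjusted p = 0.00853, with a range of 0.00853 to 0.857 over the alternatives). In darkness TrB0858W stood at 91.2 and 72.4 CPM in ku80 and at 66.2, 103, 65.2 and 110.1 CPM in sor4, where the strains overlapped. TrD0715W was at 21.1 and 18.7 CPM in ku80 light and at 34.1, 24.6, 27.7 and 26.7 CPM in sor4 light, without overlap (log2 fold change 0.52, SE 0.13, adjusted p = 0.37, edgeR).

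An interaction term asked if the drop in light was of another size in sor4. By this term 0 of the 87 genes passed, as did 0 of 8939 (0%) in edgeR. DESeq2 called 0 of the 87 and 8 of 10491 genes in all. Unadjusted, 4 genes had a positive and 2 a negative difference at p under 0.05 (4.6% and 2.3%, against 3.54% and 3.05% of all tested genes). By sign 49 were positive and 38 negative (background 50.2% and 49.8%), and 8 and 13 were at least 2-fold (background 4.21% and 4.91%). Of the 8, 5 met the light limit only in sor4 and 3 in both strains. Of the 13, 4 met it only in ku80, 1 only in sor4 and 8 in both strains. The part of the rule in these counts was not tested. The median difference over the 87 was 0.07 on the log2 scale. It was -0.31 without ku80 light replicate 1, where 3 of the 87 and 34 of 9217 genes in all passed, and 0.76 without replicate 2. TrA0809C had the smallest unadjusted p. It stood at 297 and 249.6 CPM in ku80 darkness and at 268, 288, 189 and 229 CPM in sor4 darkness, and in light at 4.85 and 3.70 CPM in ku80 and at 6.67, 8.83, 7 and 6.77 CPM in sor4. Its drop was 64.0-fold in ku80 and 33.3-fold in sor4 (difference of log2 fold changes 0.98, SE 0.27, adjusted p = 0.691, edgeR). TrE1138C had the opposite order, with drops of 34.8-fold and 81.1-fold (difference -1.17, SE 0.36, adjusted p = 0.691, edgeR). In light it was at 1.98 and 3.44 CPM in ku80 and at 1.98, 1.28, 1.18 and 1.13 CPM in sor4.

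**Figure D4:**
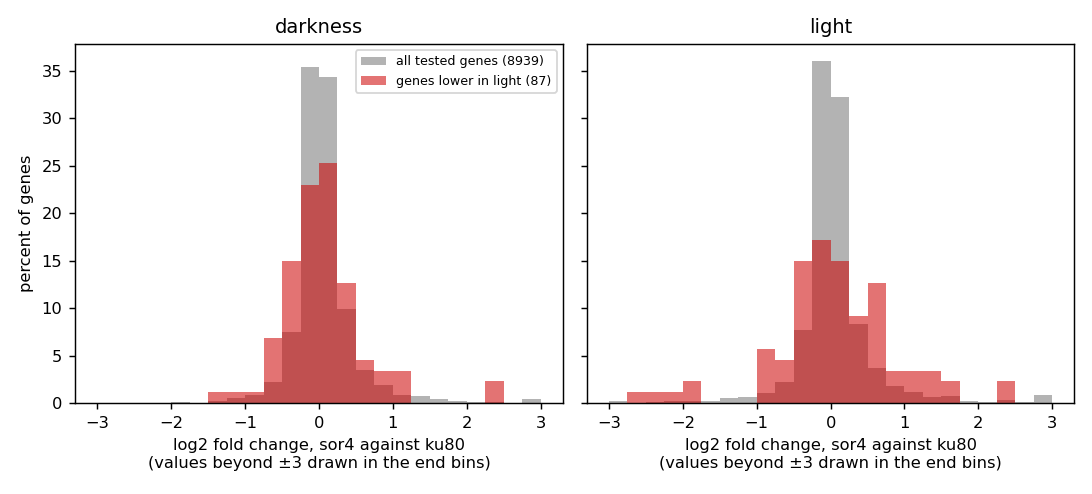
Histograms of the log2 fold change of sor4 against ku80 in darkness (left) and in light (right), in percent of the 8939 tested genes (grey) and of the 87 genes (red), with values beyond 3 in either direction drawn in the end bins. Both distributions are centred near 0 and the 87 genes are spread more widely than all tested genes, with medians of 0.03 in darkness and 0.00 in light.

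In darkness the sor4 libraries were far apart for some of the 87 genes. The highest library was over 4-fold above the lowest for 11 genes (12.6%, against 6.31% of all tested genes). The median SD of log2 (CPM + 0.1) over the 4 sor4 dark libraries was 0.375 for the 87 genes and 0.207 for all tested genes, and over the 4 sor4 light libraries it was 0.445 and 0.138. The counts of the 87 genes summed over the 4 sor4 light libraries had a median of 79, and the part of low counts in this spread was not tested.

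TrE0168W had the widest range. It stood at 2.31 and 16.2 CPM in sor4 dark replicates 1 and 2 and at 4465 and 2685 CPM in replicates 3 and 4, with ku80 between them at 667 and 937 CPM. TrC0099C was likewise at 2.2 and 1.46 CPM in sor4 dark replicates 1 and 2 and at 214 and 158 CPM in replicates 3 and 4, against 22 and 12.2 CPM in ku80. For both genes the high sor4 dark mean came from replicates 3 and 4. TrC0099C had 20 and 13 counts in sor4 dark replicates 1 and 2, and 0, 0, 5 and 2 counts in sor4 light replicates 1 to 4.

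TrE0823C had the opposite order, with 86.1 and 121 CPM in sor4 dark replicates 1 and 2 and 5.69 and 11.3 CPM in replicates 3 and 4, against 113 and 124 CPM in ku80. The next genes were named after their values were seen. TrF0518C was at 141 and 124 CPM in sor4 dark replicates 1 and 2 and at 20.4 and 33.1 CPM in replicates 3 and 4, against 136 and 138 CPM in ku80. TrB0225W was at 34.9 and 29.9 CPM and at 6.57 and 7.57 CPM, against 26.4 and 36.5 CPM in ku80. In these genes the ku80 libraries and sor4 dark replicates 1 and 2 were alike, and replicates 3 and 4 were low.

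TrB0797W and TrF1187C differed between libraries of both strains. TrB0797W stood at 437 and 145 CPM in ku80 dark replicates 1 and 2 and at 196, 832, 660.3 and 670.1 CPM in sor4 dark replicates 1 to 4. TrF1187C stood at 200.3 and 72.6 CPM in ku80 and at 109, 447, 342 and 331 CPM in sor4. Both were lowest in ku80 dark replicate 2 and next lowest in sor4 dark replicate 1. TrB0737W, of 393 bases, was highest in sor4 dark replicate 1 with 344 CPM, while it had 91.8, 26.8 and 12.6 CPM in replicates 2 to 4 and 13.7 and 28.0 CPM in ku80. None of the strain differences of these genes passed the test in darkness.

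**Figure D5:**
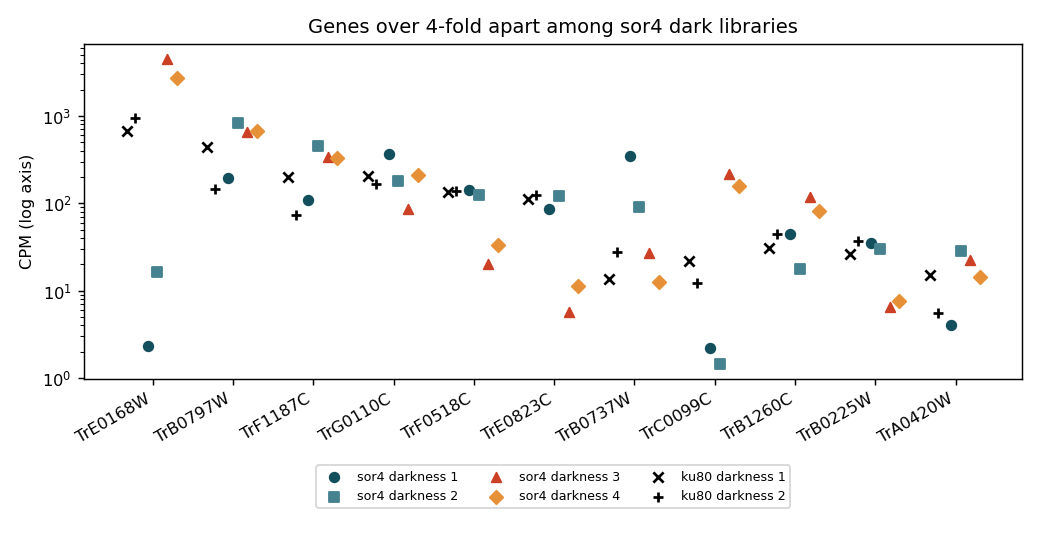
CPM on a log axis of the 11 genes whose highest sor4 dark library was over 4-fold above the lowest, with 1 symbol a library and the ku80 dark libraries as crosses. TrE0168W and TrC0099C are low in sor4 replicates 1 and 2 and high in replicates 3 and 4, and TrF0518C, TrE0823C and TrB0225W have the opposite order.

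In light, the genes with the largest spread over the sor4 libraries were at a few counts. TrD1347W had 16, 17 and 24 counts in sor4 light replicates 1 to 3 and 0 in replicate 4, while in darkness replicate 4 was its highest library, with 165 CPM against 52.2, 95.2 and 59.7 CPM. The labels do not say that libraries with the same number share a culture. TrC1526W had 0, 0, 4 and 9 counts in sor4 light and 3 and 17 counts in ku80 light, and in darkness it stood at 132 and 171 CPM in ku80 and at 71.4, 118, 74.7 and 103 CPM in sor4.

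The 87 genes had lengths of 318 to 6369 bases, with a median of 1416 against 1251 for all tested genes. All 87 lengths were multiples of 3, as coding lengths are, and so were 94.7% of all lengths in the table. Of the 87, 12 (13.8%, against 15.95% of all tested genes) had at most 600 bases and 7 (8.05%, against 8.03%) at least 3000. The 3 shortest were TrA0346C, TrE1081C and TrB1918C, with 318, 357 and 360 bases. TrE1081C had 3 and 0 counts in ku80 light and 6, 7, 4 and 6 counts in sor4 light. The identifiers run in 7 series with the letters A to G. Each series held 8 to 17 of the genes, or 0.719% of the tested genes of series A to 1.38% of those of series E. Within 100 rows of an end of a series lay 24 of the 87 (27.6%, against 10.9% of all tested genes). TrE0005W, TrA0009W and TrG1206C, named after their positions were seen, are examples. A W or C closes each identifier, and 39 (44.8%, against 49.4% of all tested genes) ended in W and 48 in C. In identifiers of this form the last letter usually gives the strand, but the sources used here do not say so.

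Lower neighbours were common although runs of 4 or more had been left out. Of the 87 genes, 33 (37.9%) had a table neighbour with at least 5 CPM in darkness that was at least 2-fold lower in light in both strains, against 14.1% of all tested genes and 38.2% of the 251 genes outside runs that were 4 to 16-fold lower. The neighbours on either side had a median log2 ratio of light to darkness of -0.57 and -0.64, and those 2 rows away of -0.23 and -0.26. At 3 to 6 rows the medians lay between -0.26 and 0.24 with no even fall-off, and for all tested genes they were 0.05 to 0.06 at every distance. The strand setting of the counting is not given in the sources used here, so reads of overlapping neighbours cannot be told apart.

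There were 5 pairs of direct neighbours among the 87, and in 4 of them a gene ending in C was followed by one ending in W. Of all neighbouring tested pairs, 29.5% had this order. Among the 30 pairs of one of the 87 genes and a neighbour at least 2-fold lower, 11 (36.7%) had it. If the letters give the strand, such genes point away from each other. The pairs were TrB1902C with TrB1903W, TrC1575C with TrC1576W, TrD0298C with TrD0299W and TrE1138C with TrE1139W, and the fifth, TrE0109C with TrE0110C, had the letter C in both. TrB1902C and TrB1903W were close in level, at 63.5 and 78.0 against 42.7 and 55.4 CPM in ku80 darkness, and at 91.5, 64.2, 109 and 90.4 against 68.9, 41.0, 73.8 and 59.8 CPM in sor4 darkness. Replicate 3 was the highest and replicate 2 the lowest sor4 dark library for both. TrE0109C and TrE0110C shared their highest sor4 dark library, replicate 1, with 245 and 285 CPM. TrE1138C and TrE1139W did not order the sor4 dark libraries alike, with 106, 95.3, 122 and 128 CPM against 53.3, 88.7, 100.9 and 67.3 CPM.

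Beside the 87 genes, 37 genes outside runs met the same dark and ratio limits but stayed under 0.5 CPM in light in both strains, a division the rule itself makes. Their median dark level was 43.5 CPM in ku80 and 45.6 CPM in sor4, against 94.4 and 93.1 CPM for the 87, and they gave 0.379% ± 0.00488 of ku80 dark counts (SD, n = 2). Their median length was 1044 bases, and 24 of the 37 identifiers (64.9%) ended in W, against 44.8% of the 87 and 49.4% of all tested genes. For the 251 genes that were 4 to 16-fold lower, the median dark levels were 52.8 and 53.5 CPM and the median light levels 7.13 and 6.99 CPM, against 2.09 and 2.00 CPM for the 87. These 251 genes, too, held more of the counts of ku80 light replicate 2 (0.845%) than of replicate 1 (0.514%), with 0.614% to 0.646% in the sor4 light libraries.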

How the data were processed

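Total RNA of mycelium was sequenced in 12 libraries after depletion of ribosomal RNA with a stranded kit, per the labels' protocols. Reads were aligned with HISAT2 2.2.1, per the submitters' processing notes. The deposited table holds whole-number counts per gene, and its name refers to featureCounts; the sources used here give no genome build, annotation or strand setting. Lengths come from the table. None of the identifiers (0 matches) is among the 9116 genes of the reference table of names, so no gene names or sequences are given. Groups follow titles and treatment labels; the treatment protocol speaks of darkness for every sample.

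Membership used CPM from column totals. Strain comparisons used edgeR 4.0.16 (R 4.3.3) on the deposited counts: TMM, default filter by group, quasi-likelihood tests from a single model of the 4 groups with all 12 libraries, and Benjamini-Hochberg adjustment over the 8939 tested genes and a threshold of 0.05. All 87 genes passed the filter, which their dark level secures, so no support is drawn from that. Log values used a pseudocount of 0.1 CPM. The fit was tested on simulated counts. Under TMM the median log2 ratio of light to darkness over all tested genes was -0.02 in ku80 and -0.01 in sor4. Pooled folds have 95% exact (Clopper-Pearson) intervals.

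The genes and lists were chosen with earlier results of these data known. Named genes are those with the highest dark (8) and light (5) levels, the smallest ratios (5), 5 on each side of the ratio threshold, the 3 smallest p of each strain test, the 3 widest spreads in sor4 darkness and in sor4 light, the 3 longest and 3 shortest, and direct neighbours; others are marked. Alternatives were other normalizations, DESeq2 1.42.0, other filters, fits of just the compared groups, a block for the replicate number, omission of each library in turn, and other limits of the rule.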

Additional observations from a re-analysis of the deposited data

Results flagged for a closer look

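Of 80 sets of 4 sor4 values (the CPM of 39 named genes and the share of counts of the 87 genes, in darkness and in light), 3 had 1 library far from the others, where chance marks about 1 set in 20. For TrC1575C the dark level of sor4 replicate 4 was 323 CPM, and the other 3 lay at 158 to 180.5 CPM. TrA0809C stood at 8.83 CPM in sor4 light replicate 2, against 6.67 to 7 CPM. TrB1902C stood at 3.65 CPM in sor4 light replicate 3, against 1.11 to 1.22 CPM.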

How the results depend on the processing

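The number of genes met by the rule was 88 and 89 with library sizes scaled by TMM and by median-of-ratios factors (84 and 86 shared with the 87), 182 at an 8-fold and 45 at a 32-fold limit, and 78 to 99 with 1 library left out. Without ku80 light replicate 1 it was 78 (72 shared), and without replicate 2 it was 99 (81 shared).

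Genes called between strains in darkness, 3 of 8939, were 73 in DESeq2, 1 with only the groups compared and 1 to 22 with 1 library left out (22 without ku80 dark replicate 1, 1 without its replicate 2, 8 and 6 without sor4 dark replicates 1 and 2). With 1 library left out the median over the 87 was -0.0801 to 0.0423 (-0.0801 without sor4 dark replicate 1), and with library size alone it was 0.0552. Genes called in light, 0, were 51 in DESeq2, 1 with only the groups compared and 0 to 110 with 1 library left out, and the median was -0.33 to 0.72. Genes called for the difference of strain effects, 0, were 8 in DESeq2, 1 with no filter on low counts and 0 to 34 with 1 library left out, and the median was -0.31 to 0.76.

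TrD0360W reversed in light, from -2.69 to 0.32 (adjusted p = 0.825, edgeR) without ku80 light replicate 2. Without replicate 1 it was -3.62 (adjusted p = 1.5e-05, edgeR, with a range of 1.5e-05 to 0.857 over the alternatives). The causes were not tested. With the replicate number as a replicate block, 1 gene was called in darkness and 1 in light, neither among the 87, and the median in light was 0.0787. Of 14 pairs of same-numbered libraries 1 had deviations from the group means correlated above 0.1 (r from -0.18 to 0.16). The 14 pairs are not separate checks, since the 2 ku80 libraries of a group deviate from their mean by equal and opposite amounts. The numbers were not taken to pair libraries. With 2 ku80 libraries a condition and a median of 34 counts per gene summed over ku80 light, only large strain differences in light were detectable.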
